A study of Mus musculus with 8 samples.

Results

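Aminoacyl-tRNA synthetases, the enzymes that load each tRNA with its amino acid, were followed through nutrient restriction and retinoic acid treatment of cultured mouse spermatogonia. The members are 36 genes of this family, taken by gene name out of 55421 listed genes. Of these, 20 encode enzymes of the cytosol and 16 encode enzymes of the mitochondrion, whose names end in 2. All 36 were found under their names, and all 36 passed the filter on low counts. *Kars* and *Gars*, counted here as cytosolic, are known to encode the mitochondrial form of their enzyme as well.

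The cells were primary cultures of undifferentiated spermatogonia, derived from C57BL/6 by DBA/2 pups at 6 days of age and kept on irradiated embryonic fibroblasts, so each library can hold feeder RNA. RNA was sequenced from 2 libraries in each of 4 groups, described by the study as independent biological replicates, after 2 days of treatment. Veh cells stayed in complete medium with vehicle, and RA cells had 100 nM retinoic acid in that medium. NR cells had nutrient restriction, with 90% of the medium exchanged for EBSS and 10% complete medium left. EBSS is a buffered salt solution with glucose and no amino acids. The exchange also diluted the GDNF, FGF2, serum and serum replacement of the complete medium, and their part was not tested. NRRA cells had that restricted medium together with 100 nM retinoic acid.

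Most synthetases join 1 amino acid to its tRNAs, and cytosolic and mitochondrial translation use separate enzymes for most amino acids. Several cytosolic synthetases sit together in a multisynthetase complex held by scaffold proteins. When an amino acid is short, uncharged tRNA activates the kinase Gcn2, encoded by *Eif2ak4*. Phosphorylation of the initiation factor eIF2 then lowers general translation and favours translation of *Atf4*, a transcription factor known to activate genes for amino acid transport, amino acid synthesis and many cytosolic synthetases. Mitochondrial synthetases are encoded in the nucleus and imported.

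Total counts ran from 19261333 to 30023585 per library, and 20477 genes were tested. Levels are given as counts per 1000000 counts of the library (CPM), scaled with edgeR's TMM factors. Differences are log2 values of edgeR's quasi-likelihood fit with their standard errors (SE), and a gene was called at a Benjamini-Hochberg adjusted p under 0.05. All 8 germ cell markers were detected, and *Ddx4*, which encodes a germ cell helicase, lay between 131 and 191 CPM. The calls of these 8 markers went both ways, with 4 higher and 3 lower in RA vs Veh, 6 and 1 in NR vs Veh, and 5 and 3 in NRRA vs Veh. *Stra8* and *Kit*, known to be induced by retinoic acid, were called higher and *Zbtb16*, *Etv5* and *Gfra1*, markers of undifferentiated spermatogonia, lower in both RA and NRRA. Without *Stra8* and *Kit*, a choice made after the data were seen, the summed level of the germ cell markers was 915.7 and 919.4 CPM for Veh, 785.1 and 856.6 for RA, 1078 and 1054 for NR, and 774.9 and 793.1 for NRRA. With them it was 923.2 and 927.2 for Veh and highest for NRRA, at 2051 and 2107. All 12 fibroblast markers were detected too, and their summed level was 18302 and 18516 CPM for Veh, 16229 and 15087 for RA, 30508 and 31813 for NR, and 26028 and 25241 for NRRA. Of these 12 markers, 1 was called higher and 7 lower in RA vs Veh, 10 were called higher and 1 lower in NR vs Veh, and 9 higher and 3 lower in NRRA vs Veh. Of all tested genes, 19.8% were called higher and 23.4% lower in RA vs Veh. These shares were 21.7% and 22.2% in NR vs Veh, and 30.1% and 28.7% in NRRA vs Veh. The fibroblast marker *S100a4* was 3.22 and 3.07 CPM for Veh, 0.465 and 0.771 for NRRA, and called lower with every treatment. In bulk RNA, fewer cells of a type and less RNA per cell cannot be told apart, and the part of these markers in the results below was not tested.

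The promoter sequences come first, because a known DNA element links this family to amino acid supply. The core of the amino acid response element, TGATGNAA, was searched on both strands of RefSeq promoter windows (GRCm38.p6), which reach from 250 bases before a transcription start to 50 bases after it. Windows were found for 27 of the 36 members, and none for *Cars*, *Hars*, *Lars*, *Nars*, *Rars*, *Vars*, *Wars*, *Hars2* and *Pars2*. The core was present in 5 of 13 cytosolic members with a window, namely *Aars*, *Gars*, *Iars*, *Tars* and *Yars*, and in 0 of 14 mitochondrial members. Over all genes with a window, 4.51% held it. The match nearest the start is shown for each of the 5 members as a stretch of 30 bases read on the strand of the core, which is in capitals, so that the shared letters and their neighbours can be compared.
Aars, chr8:111033840-111033869, minus strand: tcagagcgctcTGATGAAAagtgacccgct
Gars, chr6:55037960-55037989, minus strand: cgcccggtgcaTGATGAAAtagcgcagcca
Iars, chr13:49682126-49682155, minus strand: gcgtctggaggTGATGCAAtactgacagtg
Tars, chr15:11399655-11399684, plus strand: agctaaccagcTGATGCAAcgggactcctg
Yars, chr4:129189895-129189924, plus strand: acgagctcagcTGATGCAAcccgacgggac
Counted along the gene, the first base of the core's site lay 30 bases upstream of the start in *Gars* and 15 bases upstream in *Tars*. In both genes the core is on the strand opposite the gene, so the printed stretch runs against this count. In the stretches of *Aars*, *Iars* and *Yars* it lay just downstream of the start. The free base was C in *Iars*, *Tars* and *Yars* and A in *Aars* and *Gars*.

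The CCAAT box was found in 7 of 13 cytosolic and 6 of 14 mitochondrial members with a window, beside 41.1% of all genes. The E box CACGTG, a palindrome, was found in 4 of 13 cytosolic members, namely *Aars*, *Iars*, *Tars* and *Farsb*, and in 1 of 14 mitochondrial members, *Ears2*, beside 8.09% of all genes. These matches are descriptions of letters in a window, not of binding.

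Cytosolic synthetase genes were the more abundant set in control cells. Per kilobase of the principal transcript, the Veh levels of the 20 cytosolic members ran from 27.5 (*Yars*) to 120 (*Gars*) CPM, with a median of 57.5. The 16 mitochondrial members ran from 1.78 (*Mars2*) to 66.4 (*Lars2*) CPM per kilobase, with a median of 11.8. Only *Lars2*, for leucine, lay above the lowest cytosolic member on this scale. With the union of all exons as the length, an alternative added after the data were seen, the medians were 34.4 and 5.47, and 2 mitochondrial members lay above the lowest cytosolic member. Summed over members without the length correction, the cytosolic set held 3729 and 3766 CPM in the Veh libraries and the mitochondrial set 748.7 and 731.4.

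The summed cytosolic level was lower in every treated library than in either Veh library. It was 3250 and 3231 CPM for RA, 3187 and 3149 for NR, and 2919 and 2906 for NRRA, so that the 4 groups did not overlap. The mitochondrial sum was 652.7 and 660.8 CPM for RA, 688.7 and 676.8 for NR, and 662.0 and 618.3 for NRRA. Its treated libraries also lay below both Veh libraries, but RA and NRRA overlapped. The ratio of the cytosolic to the mitochondrial sum was 4.98 and 5.15 for Veh, 4.98 and 4.89 for RA, 4.63 and 4.65 for NR, and 4.41 and 4.70 for NRRA. *Lars2*, the most abundant mitochondrial member, held 261.9 and 255.2 CPM of the mitochondrial sum for Veh and 242.8 and 196.4 for NRRA. The overlap of RA and NRRA and the order of the ratios therefore rest in large part on this gene. Its values in all groups are given below.

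**Figure D1:**
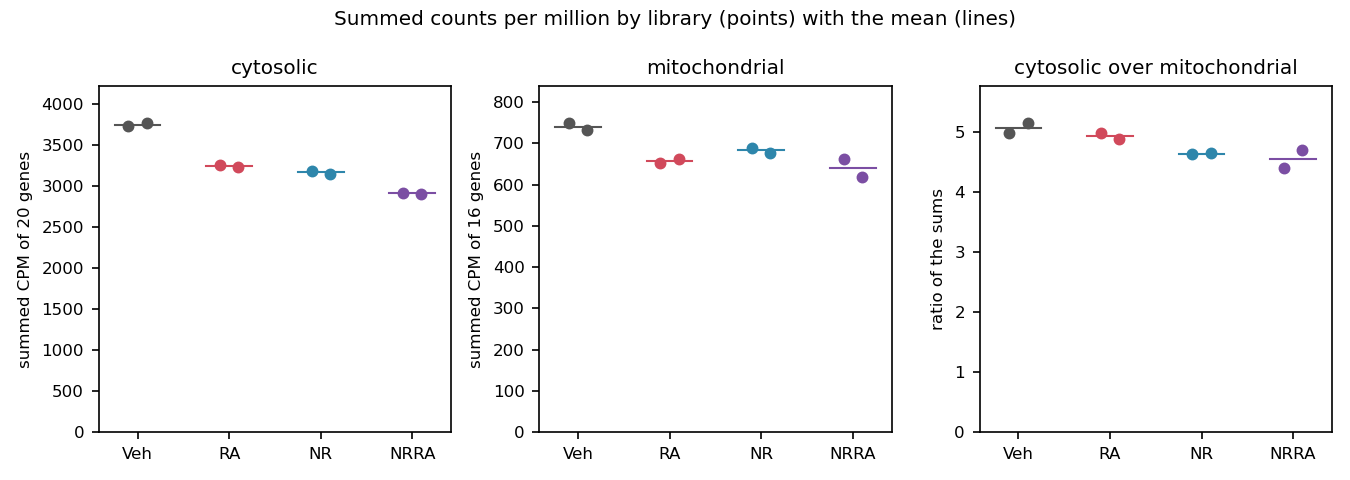
Summed CPM of the 20 cytosolic genes (left), of the 16 mitochondrial genes (middle) and their ratio (right) on linear axes from 0, with 1 point per library and a line at the mean of the 2 libraries. The cytosolic sum steps from 3729 and 3766 CPM in Veh down to 2919 and 2906 CPM in NRRA without overlap. The mitochondrial groups RA and NRRA overlap, which rests on Lars2, at 242.8 and 196.4 CPM in the NRRA libraries.

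Nutrient restriction alone lowered nearly the whole cytosolic set by a small amount. In NR vs Veh, 18 of 20 cytosolic members were called lower and 0 higher, beside 22.2% of all tested genes called lower and 21.7% higher. The exceptions were *Eprs* (-0.03 ± 0.0431 SE) and *Wars* (-0.06 ± 0.0579 SE). With the trend on GC content and length removed, *Eprs* was called lower too (-0.34, adjusted p = 7.05e-12), and without Veh replicate 2 so was *Wars* (-0.14, adjusted p = 0.0319). The median log2 difference of the cytosolic set was -0.24, against 0.01 over all tested genes, and its members ran from -0.53 to -0.03.

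*Rars*, which charges arginine tRNA and belongs to the complex, had the largest fall in NR. The gene (ENSMUSG00000018848) lies on the minus strand at chr11:35808381-35834506 of GRCm38. Its level was 244.1 and 257.2 CPM for Veh, 213.2 and 211.4 for RA, 174.7 and 172.5 for NR, and 154.0 and 161.2 for NRRA. No groups overlapped, and both NR libraries lay below both RA libraries. The difference in NR vs Veh was -0.53 ± 0.0442 (adjusted p = 1.77e-10), a fall by 30.7%.

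*Sars*, the seryl-tRNA synthetase, was next. Its level was 195.3 and 203.5 CPM for Veh, 174.4 and 167.9 for RA, 147.2 and 144.1 for NR, and 136.7 and 141.8 for NRRA. Again no groups overlapped, although NR and NRRA lay close together. The log2 difference in NR vs Veh was -0.45 ± 0.0455 (adjusted p = 5.84e-09). *Farsb*, the beta subunit of the phenylalanyl enzyme, followed at -0.42 and its partner *Farsa*, the alpha subunit, stood at -0.24.

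The 5 cytosolic members whose promoters held the response core did not rise in NR. Their log2 differences were -0.19 for *Aars*, -0.21 for *Gars*, -0.26 for *Iars*, -0.13 for *Tars* and -0.26 for *Yars*, and all 5 were called lower. The call of *Tars* (adjusted p = 0.0272), like that of *Dars* (-0.16, adjusted p = 0.0246), was lost with DESeq2 and in each fit that left out an NR library.

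Mitochondrial members went both ways in the same comparison. In NR vs Veh, 5 of 16 were called lower (*Yars2*, *Lars2*, *Tars2*, *Mars2* and *Iars2*) and 2 higher (*Wars2* and *Cars2*), and 9 were not called. Of all tested genes, 22.2% were called lower and 21.7% higher. The median of the set was -0.00, and members ran from -0.29 to 0.43. Their median SE was 0.0801, compared with 0.0455 in the cytosolic set, so small differences were harder to detect. With library totals the calls were 3 lower and 3 higher, and 3 members were called without NR replicate 1 and 4 without NR replicate 2. Only *Cars2*, *Lars2* and *Tars2* were called in the same direction in every one of the 17 fits made.

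*Wars2*, for mitochondrial tryptophan tRNA, had the largest rise. Its level was 7.38 and 8.44 CPM for Veh, 7.19 and 7.46 for RA, 11.7 and 9.68 for NR, and 10.5 and 10.0 for NRRA. The libraries in restricted medium lay above all libraries in complete medium. The log2 difference in NR vs Veh was 0.43 ± 0.121 (adjusted p = 0.00547). Without Veh replicate 1 it was 0.35 (adjusted p = 0.0577), and without NR replicate 1 it was 0.31 (adjusted p = 0.0903).

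*Yars2*, for tyrosine, had the largest fall of the mitochondrial set in NR. Its level was 18.3 and 22.5 CPM for Veh, 18.2 and 16.9 for RA, 16.6 and 16.7 for NR, and 16.4 and 16.1 for NRRA. The Veh libraries differed from each other more than the treated groups did, and only 1 of them stood clearly apart. The log2 difference was -0.29 ± 0.0932 (adjusted p = 0.012), but it was -0.13 (adjusted p = 0.339) without Veh replicate 2. It was -0.27 without NR replicate 1 and -0.28 without NR replicate 2, with an adjusted p of 0.0779 in both.

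**Figure D2:**
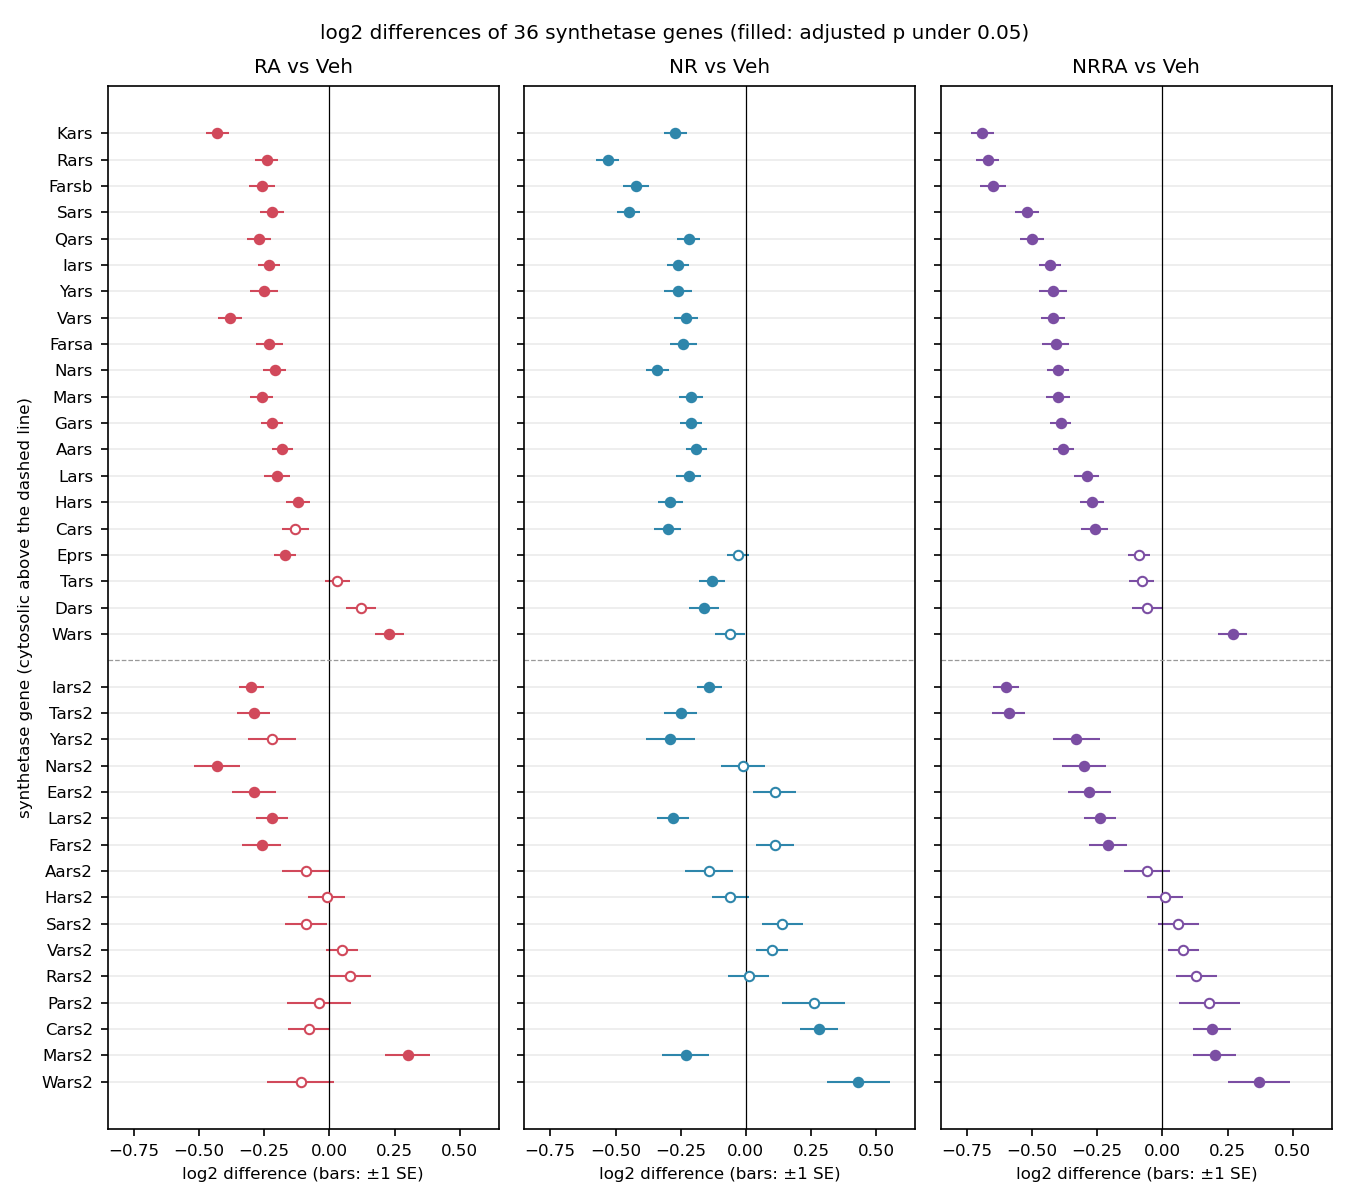
The log2 difference of each of the 36 synthetase genes (rows, cytosolic above the dashed line and mitochondrial below) in RA vs Veh, NR vs Veh and NRRA vs Veh, with bars of 1 SE and filled points at an adjusted p under 0.05. In NRRA vs Veh 16 cytosolic points are filled on the left of 0 and 1, Wars, on the right, while mitochondrial points spread from -0.60 (Iars2) to 0.37 (Wars2).

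Retinoic acid in complete medium lowered most cytosolic members as well, with a different order. In RA vs Veh, 16 of 20 were called lower and 1 higher, beside 23.4% of all genes called lower and 19.8% higher, and the set's median was -0.22 against -0.02 over all genes. *Cars* (-0.13), *Dars* (0.12) and *Tars* (0.03) were not called. Of the 16 lower calls, 12 held in every fit, and scaling by library totals gave 12 lower and 3 higher calls.

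*Kars*, for lysine, led this comparison. The gene (ENSMUSG00000031948) lies on the minus strand at chr8:111993443-112011323. Its level was 231.4 and 231.5 CPM for Veh, 170.1 and 172.4 for RA, 196.3 and 186.7 for NR, and 141.5 and 145.9 for NRRA. RA libraries lay below NR libraries, the reverse of *Rars*, and no groups overlapped. The log2 difference in RA vs Veh was -0.43 ± 0.0439 (adjusted p = 9.29e-09).

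*Vars*, for valine, came second. Its level was 335.8 and 305.0 CPM for Veh, 249.0 and 243.9 for RA, 273.6 and 274.5 for NR, and 245.1 and 233.3 for NRRA. Veh libraries were highest, and RA and NRRA overlapped. The log2 difference in RA vs Veh was -0.38 ± 0.0457 (adjusted p = 1.8e-07), and in NRRA vs RA it was -0.04 ± 0.0455.

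*Wars*, the tryptophanyl-tRNA synthetase, was the exception among cytosolic members, and its gene (ENSMUSG00000021266) lies at chr12:108860030-108894174. Its level was 83.7 and 73.2 CPM for Veh, 91.2 and 92.6 for RA, 76.4 and 74.3 for NR, and 94.9 and 94.1 for NRRA. Every library with retinoic acid lay above every library without it. The log2 difference was 0.23 ± 0.0569 in RA vs Veh (adjusted p = 0.00195). It was 0.27 ± 0.056 with both treatments (adjusted p = 0.0002), and 0.33 ± 0.0554 when NRRA was set against NR (adjusted p = 2.35e-05). These 3 calls held in every fit. *Wars* is known as an interferon-induced synthetase, and a link of its values to interferon was not tested.

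*Dars*, for aspartate, had the second largest positive value. Its level was 80.8 and 91.6 CPM for Veh, 90.4 and 97.1 for RA, 76.1 and 77.6 for NR, and 82.8 and 82.2 for NRRA. RA and Veh libraries overlapped, and the log2 difference of 0.12 ± 0.0576 was not called (adjusted p = 0.083). With the trend on GC content and length removed it was -0.13.

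Among mitochondrial members, 6 of 16 were called lower in RA vs Veh (*Nars2*, *Iars2*, *Tars2*, *Ears2*, *Fars2* and *Lars2*) and 1 higher (*Mars2*). Of all genes, 23.4% were called lower and 19.8% higher. The median of the set was -0.10. *Nars2*, for asparagine, was lowest. Its level was 18.1 and 17.7 CPM for Veh, 13.2 and 13.3 for RA, 18.2 and 17.3 for NR, and 14.8 and 14.4 for NRRA. The libraries with retinoic acid lay below those without it, and the log2 difference in RA vs Veh was -0.43 ± 0.0882 (adjusted p = 0.000242). *Nars2*, *Iars2* and *Tars2* were called lower in every fit.

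*Mars2*, for methionine, rose with retinoic acid. Its level was 19.5 and 20.6 CPM for Veh, 22.6 and 26.3 for RA, 16.9 and 17.3 for NR, and 24.0 and 22.1 for NRRA. The groups with retinoic acid overlapped each other and lay above Veh, and NR lay below it. The log2 difference in RA vs Veh was 0.30 ± 0.085 (adjusted p = 0.0058). It was 0.17 (adjusted p = 0.225) without RA replicate 2, and it turned to -0.08 when the trend on GC content and length was removed. The principal transcript of *Mars2* has 11294 bases, the longest among the 36 members.

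**Figure D3:**
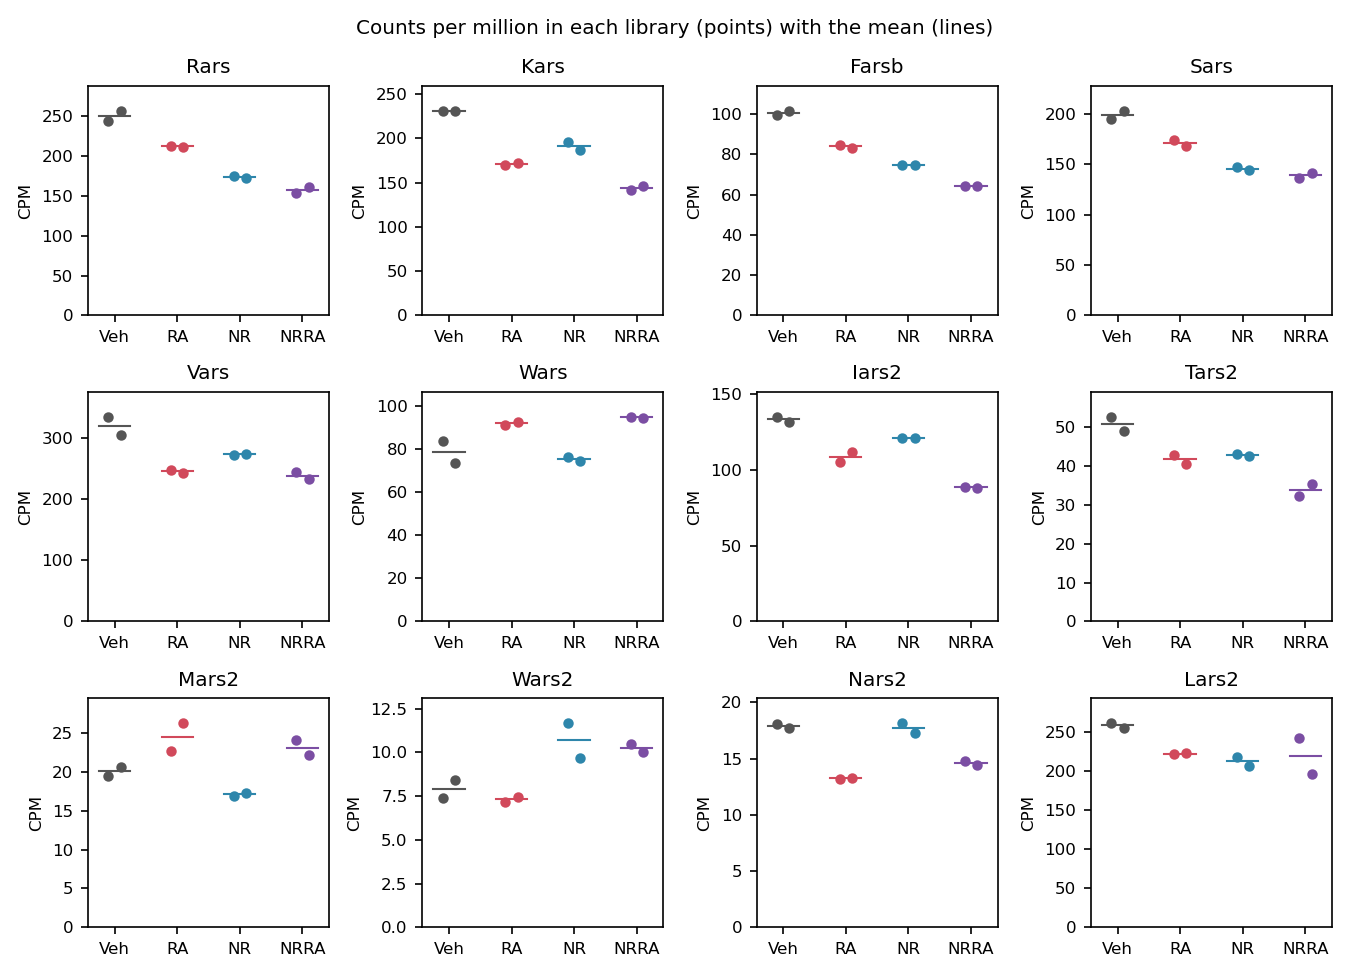
CPM in each of the 8 libraries (points, linear axes from 0) with the group mean (lines) for 6 cytosolic and 6 mitochondrial members. Rars, Kars, Farsb and Sars are highest in Veh and lowest in NRRA, Wars is higher in both groups with retinoic acid, and the NRRA libraries of Lars2 lie apart at 242.8 and 196.4 CPM.

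With both treatments together, the cytosolic set reached its lowest levels. In NRRA vs Veh, 16 of 20 cytosolic members were called lower and 1 (*Wars*) higher, beside 28.7% and 30.1% of all genes, and all 17 calls held in every fit. The median of the set was -0.40, against 0.03 over all genes. Both Veh libraries lay above all 6 treated libraries in 16 of 20 cytosolic members, compared with 4 of 16 mitochondrial members and 17.7% of all tested genes. Both NRRA libraries lay below all other libraries in 13 cytosolic members, 3 mitochondrial members and 16.1% of all tested genes. *Dars* (-0.06), *Tars* (-0.08) and *Eprs* (-0.09), which encodes the joint glutamyl and prolyl enzyme, were not called. With the trend on GC content and length removed, all 3 were called lower, with *Dars* at -0.41, *Eprs* at -0.47 and *Tars* at -0.19.

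*Kars* had the largest fall at -0.69 ± 0.0439 (adjusted p = 3.98e-13), a fall by 37.9%. *Rars* followed at -0.67 ± 0.044 (adjusted p = 7.41e-13), and *Farsb* at -0.65. The remaining lower members ran from *Sars* at -0.52 and *Qars* at -0.50 to *Cars* at -0.26. Scaled by library totals in place of TMM, the median of all genes was 0.14 and that of the cytosolic set -0.28, so that the set stood -0.43 from all genes on both scales.

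In the mitochondrial set, 7 of 16 members were called lower and 3 higher in NRRA vs Veh, beside 28.7% and 30.1% of all genes. The median of the set was -0.02. Scaling by library totals gave 3 lower and 6 higher calls with a median of 0.09. *Iars2*, for isoleucine, was 135.1 and 131.8 CPM for Veh, 104.9 and 111.7 for RA, 121.2 and 121.3 for NR, and 88.7 and 88.0 for NRRA. No groups overlapped, and the log2 difference was -0.60 ± 0.0483 (adjusted p = 5.14e-11). Of its annotated exon bases, 24.2% overlap other genes, mainly *Rab3gap2* on the opposite strand, and how the counts treated strand is not given in the sources used here.

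*Tars2*, for threonine, was 52.8 and 49.1 CPM for Veh, 42.9 and 40.7 for RA, 43.1 and 42.6 for NR, and 32.4 and 35.3 for NRRA. RA and NR overlapped, and NRRA lay below all other libraries. Its log2 difference in NRRA vs Veh was -0.59 ± 0.0636 (adjusted p = 1.04e-08). *Iars2* and *Tars2* were the members of the set called lower in every fit. *Wars2* had the largest positive value at 0.37 ± 0.118 (adjusted p = 0.00825), which was not called without Veh replicate 1 (0.28, adjusted p = 0.0993) or with DESeq2 (0.35, adjusted p = 0.0647). The higher calls of *Cars2* (0.19) and *Mars2* (0.20) were each lost with DESeq2, and *Mars2* turned to -0.34 with the trend on GC content and length removed.

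Restriction added to retinoic acid gave a further fall of the cytosolic set. In NRRA vs RA, 15 of 20 cytosolic members were called lower and 0 higher, beside 19.4% and 20.9% of all genes, with a median of -0.17. The number of cytosolic calls was 9 without NRRA replicate 2. *Rars* led at -0.43 ± 0.0439 (adjusted p = 7.43e-09).

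*Farsb*, second in this comparison, was 99.4 and 101.8 CPM for Veh, 84.6 and 83.3 for RA, 75.0 and 74.9 for NR, and 64.3 and 64.3 for NRRA. No groups overlapped. Its log2 difference in NRRA vs RA was -0.38 ± 0.05 (adjusted p = 4.8e-07).

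*Eprs* had the largest positive value, 0.08 ± 0.0429, and was not called (adjusted p = 0.131). Its level was 371.0 and 408.6 CPM for Veh, 347.8 and 343.8 for RA, 383.4 and 377.7 for NR, and 369.7 and 362.7 for NRRA. NR and Veh overlapped, and RA was lowest. With the trend on GC content and length removed, the sign in NRRA vs RA turned (-0.07). *Wars* stood at 0.04.

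Of the 16 mitochondrial members, 2 were called higher (*Wars2* at 0.48 ± 0.114 and *Cars2* at 0.27) and 2 lower (*Tars2* at -0.30 ± 0.0637 and *Iars2* at -0.30) in NRRA vs RA. Of all genes, 20.9% were called higher and 19.4% lower. The adjusted p was 0.00131 for *Wars2* and 0.000409 for *Tars2*. Of these 4 calls, that of *Cars2* was lost without RA replicate 2 (0.24, adjusted p = 0.0618).

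Retinoic acid in restricted medium gave fewer cytosolic calls. In NRRA vs NR, 11 of 20 cytosolic members were called lower and 1 (*Wars*) higher, beside 22.1% and 21.3% of all genes, and the median was -0.15. Scaling by library totals gave 7 lower and 3 higher calls. *Kars* led again at -0.41 ± 0.0438 (adjusted p = 1.66e-08). *Qars*, for glutamine, followed at -0.28 ± 0.0449 (adjusted p = 1.11e-05). Its level was 187.5 and 180.2 CPM for Veh, 149.3 and 154.5 for RA, 159.7 and 155.4 for NR, and 129.8 and 129.5 for NRRA, with no overlap between groups. *Dars* had the second positive value (0.10 ± 0.0569, adjusted p = 0.159, and -0.02 with the trend on GC content and length removed). In the mitochondrial set 5 members were called lower, led by *Iars2* (-0.46 ± 0.0481, adjusted p = 1.4e-08), and 1 higher, *Mars2* (0.43 ± 0.0833, adjusted p = 0.000126), and all 6 calls but that of *Nars2* (-0.28) held in every fit.

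No cytosolic member passed the test of whether the response to retinoic acid differed between the media. The interaction is the log2 response to retinoic acid in restricted medium minus that in complete medium. With edgeR, 0 of 20 cytosolic members were called, beside 6.37% of all genes called with a higher and 6.58% with a lower response. At an unadjusted p under 0.05 edgeR gave 5 of 20 cytosolic members, beside 5203 of 20477 tested genes, a similar share. DESeq2 called 0 cytosolic members. Cytosolic values ran from -0.02 (*Dars*, which turned to 0.12 with the trend on GC content and length removed) and -0.01 (*Qars*) to 0.17 (*Cars*) and 0.18 (*Vars*, ± 0.0643, adjusted p = 0.0615). Of the 20 values, 18 were positive, beside 10827 of 20477 tested genes. *Cars*, for cysteine, was 94.8 and 93.4 CPM for Veh, 84.6 and 87.8 for RA, 77.0 and 76.0 for NR, and 81.1 and 76.5 for NRRA, so that NRRA and NR overlapped.

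*Lars2* was the 1 mitochondrial member called in the interaction, at 0.27 ± 0.0862 (adjusted p = 0.0412). Its level was 261.9 and 255.2 CPM for Veh, 221.8 and 222.9 for RA, 218.2 and 206.6 for NR, and 242.8 and 196.4 for NRRA. The NRRA libraries lay on either side of the NR and RA libraries, the widest gap between replicates of this gene. Without NRRA replicate 1 the interaction was 0.11 (adjusted p = 0.443), and with DESeq2 it was 0.25 (adjusted p = 0.464). *Iars2* had the largest negative value, -0.16 ± 0.0681 (adjusted p = 0.138).

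Cytosolic and mitochondrial members for the same amino acid were set side by side in 17 pairs, in which *Eprs* was paired with both *Ears2* and *Pars2*, and *Fars2* with both *Farsa* and *Farsb*. In NR vs Veh the mitochondrial gene had the higher log2 difference in 13 of 17 pairs, and in NRRA vs Veh in 14 of 17, with a median difference between the partners of 0.30 and 0.27. In RA vs Veh it was higher in 10 of 17, with a median of 0.03. The pairs share libraries and some share a gene, so these counts carry no test. With the trend on GC content and length removed, an alternative added for the pairs after the data were seen, the counts were 13, 12 and 11 in NR, NRRA and RA vs Veh.

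Serine and cysteine gave the widest gaps in NR. *Sars* stood at -0.45 and *Sars2* at 0.14, and *Cars* stood at -0.30 and *Cars2* at 0.28. *Cars2* was 21.9 and 23.6 CPM for Veh and 28.0 and 27.1 for NR, without overlap, while *Sars2* was 29.0 and 24.9 for Veh and 31.0 and 28.8 for NR, with overlap. The reverse order was seen for threonine (*Tars* at -0.13 and *Tars2* at -0.25) and leucine (*Lars* at -0.22 and *Lars2* at -0.28), with differences of -0.12 ± 0.0799 and -0.06 ± 0.0785 that were within 2 SE of 0.

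In NRRA vs Veh the widest gap was that of arginine, where *Rars* stood at -0.67 and *Rars2* at 0.13, a difference of 0.80 ± 0.0889. *Rars2* was 26.9 and 29.4 CPM for Veh and 28.7 and 32.8 for NRRA, with overlap. Methionine followed, with *Mars* at -0.40 and *Mars2* at 0.20, but with the trend on GC content and length removed the partners stood at -0.36 and -0.34. Threonine again ran the other way, with *Tars* at -0.08 and *Tars2* at -0.59. So did glutamate, with *Eprs* at -0.09 and *Ears2* at -0.28, and *Ears2* was 21 and 19 CPM for Veh and 16.4 and 16.5 for NRRA. That pair turned when the trend on GC content and length was removed, with *Eprs* at -0.47 and *Ears2* at -0.27. Tryptophan was the 1 amino acid for which both partners were called higher, with *Wars* at 0.27 and *Wars2* at 0.37.

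**Figure D4:**
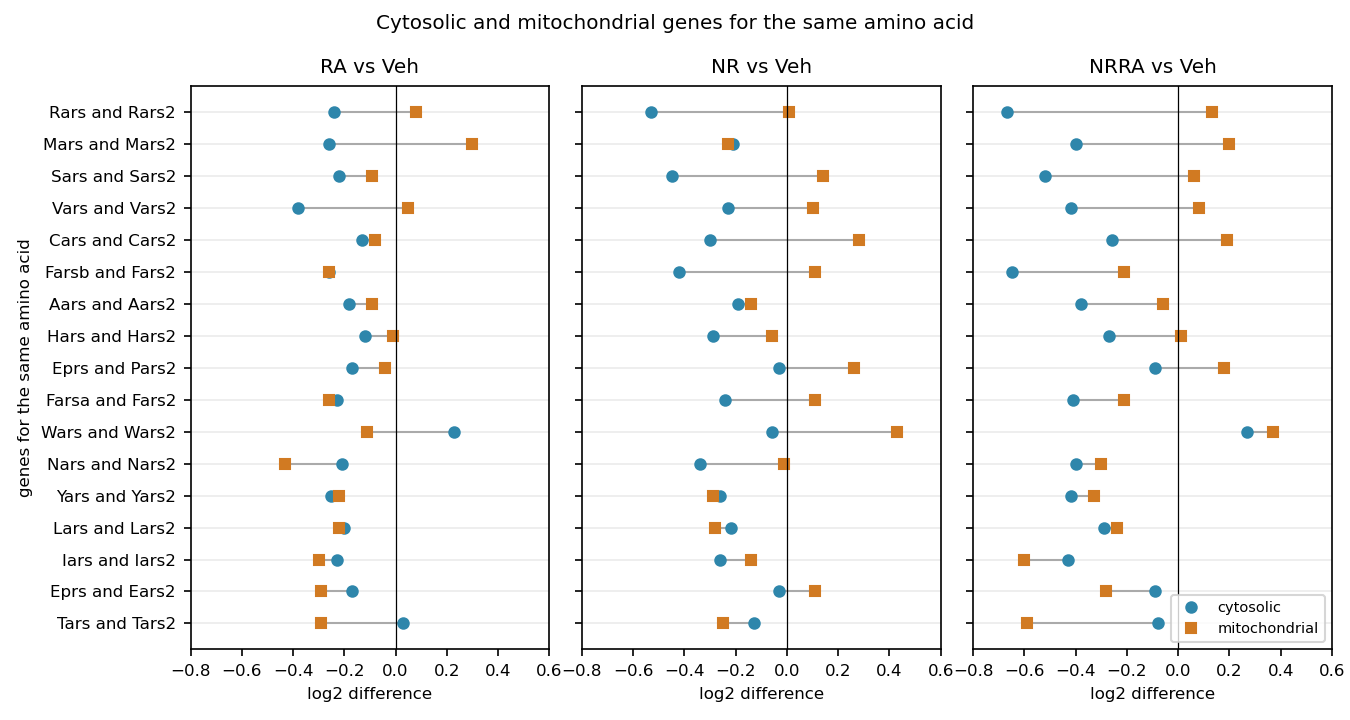
The log2 differences of the cytosolic gene (circles) and the mitochondrial gene (squares) for the same amino acid in 17 pairs, joined by a line, in RA vs Veh, NR vs Veh and NRRA vs Veh. Squares lie to the right of circles in 10, 13 and 14 of the 17 pairs, and Tars and Tars2 are the widest pair in the other direction in NRRA vs Veh.

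Groupings of the cytosolic set by structure showed similar medians. In NRRA vs Veh the 8 members of the multisynthetase complex had a median of -0.41 and the 12 outside it -0.39. The 10 members for essential amino acids had a median of -0.40 and the 10 for non-essential amino acids -0.39. The 9 class I enzymes had a median of -0.42 and the 10 class II enzymes -0.39, with *Eprs*, which carries both classes, in neither. Within the complex, members ran from *Kars* at -0.69 to *Dars* at -0.06.

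The scaffold genes of the complex fell in NRRA, as did 6 of its 8 enzymes, while *Dars* and *Eprs* were not called. *Aimp1* was 61.7 and 62.0 CPM for Veh, 51.6 and 49.8 for RA, 59.8 and 57.6 for NR, and 49.2 and 52.3 for NRRA. *Aimp2* was 55.9 and 51.4 for Veh, 47.2 and 43.7 for RA, 49.6 and 46.5 for NR, and 38.4 and 40.7 for NRRA. *Eef1e1*, which encodes the third scaffold protein, was 33.3 and 35.2 for Veh, 29.2 and 29.7 for RA, 28.7 and 25.5 for NR, and 24.4 and 25 for NRRA. In each of the 3 genes every NRRA library lay below both Veh libraries. All 3 were called lower in RA vs Veh and in NRRA vs Veh, where they stood at -0.28, -0.44 and -0.47. Of all genes, 23.4% were called lower in RA vs Veh, 28.7% in NRRA vs Veh and 22.2% in NR vs Veh. In NR vs Veh, *Aimp2* (-0.16) and *Eef1e1* (-0.34) were called and *Aimp1* (-0.08) was not, but the value of *Aimp1* was -0.41 and called with the trend on GC content and length removed. Of the annotated exon bases of *Aimp2*, 29.4% overlap *Eif2ak1* on the opposite strand.

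Of 4 other genes of mitochondrial aminoacylation, 1 was called lower in NRRA vs Veh, beside 28.7% of all genes. This was *Mtfmt* (-0.31 ± 0.0824, adjusted p = 0.00216), which encodes the enzyme that formylates initiator methionyl-tRNA and is named here because of its value. *Gatc*, a subunit of the amidotransferase that makes mitochondrial glutaminyl-tRNA, was 16 and 15.6 CPM for Veh, 17.9 and 15.7 for RA, 13.7 and 14.1 for NR, and 17.9 and 17.6 for NRRA. NR libraries were lowest, and the difference in NR vs Veh of -0.19 ± 0.0933 was not called (adjusted p = 0.111). *Gatb*, another subunit, was 11.8 and 12.8 CPM for Veh, 11.6 and 11 for RA, 10.3 and 12 for NR, and 11.5 and 10.4 for NRRA. NR and Veh overlapped, at -0.13 ± 0.107 (adjusted p = 0.335).

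*Atf4* mRNA moved little. It was 112.5 and 102.9 CPM for Veh, 98.0 and 93.9 for RA, 120.9 and 121.3 for NR, and 107.7 and 107.0 for NRRA. NR libraries were highest and RA libraries lowest, with a log2 difference from Veh of 0.17 ± 0.0509 for NR (adjusted p = 0.00853). That of RA was -0.17 ± 0.0517 (adjusted p = 0.00962), and that of NRRA was -0.01. These are mRNA levels, and *Atf4* is controlled largely at translation, which was not measured here.

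Known *Atf4* response genes other than synthetases split in both directions. Of 21 such genes, 7 were called higher and 10 lower in NR vs Veh, 1 higher and 11 lower in RA vs Veh, and 5 higher and 9 lower in NRRA vs Veh. In the same order, 21.7%, 19.8% and 30.1% of all genes were called higher, and 22.2%, 23.4% and 28.7% lower. *Pycr1*, an enzyme of proline synthesis, was 6.44 and 6.31 CPM for Veh, 6.01 and 5.90 for RA, 15.5 and 13.6 for NR, and 12.8 and 13.4 for NRRA. Both restricted groups lay above both groups in complete medium, at 1.18 ± 0.114 in NR vs Veh (adjusted p = 2.71e-09). *Slc7a11*, the cystine transporter, was 40.5 and 46.7 CPM for Veh, 23.6 and 22.6 for RA, 11.4 and 12.3 for NR, and 9.43 and 8.93 for NRRA. Its groups did not overlap, and the log2 difference in NR vs Veh was -1.87 ± 0.0857 (adjusted p = 6.98e-16).

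The other genes called higher in NR were *Nupr1* (1.06), *Atf5* (0.68), *Trib3* (0.55), *Chac1* (0.43), *Ddit3* (0.36) and *Slc38a2* (0.16), of which *Nupr1*, *Atf5*, *Trib3* and *Ddit3* encode stress-induced regulators. Among the lower calls were *Psat1* at -0.59, *Shmt2* at -0.50, *Mthfd2* at -0.22 and *Phgdh* at -0.19, enzymes of serine and one-carbon metabolism, and *Asns*, for asparagine synthesis, at -0.14. *Psph*, for the last step of serine synthesis, was not called (-0.05). In NRRA vs Veh, *Phgdh* reached -1.80. The genes named here, other than *Pycr1* and *Slc7a11*, were chosen after their values were seen.

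**Figure D5:**
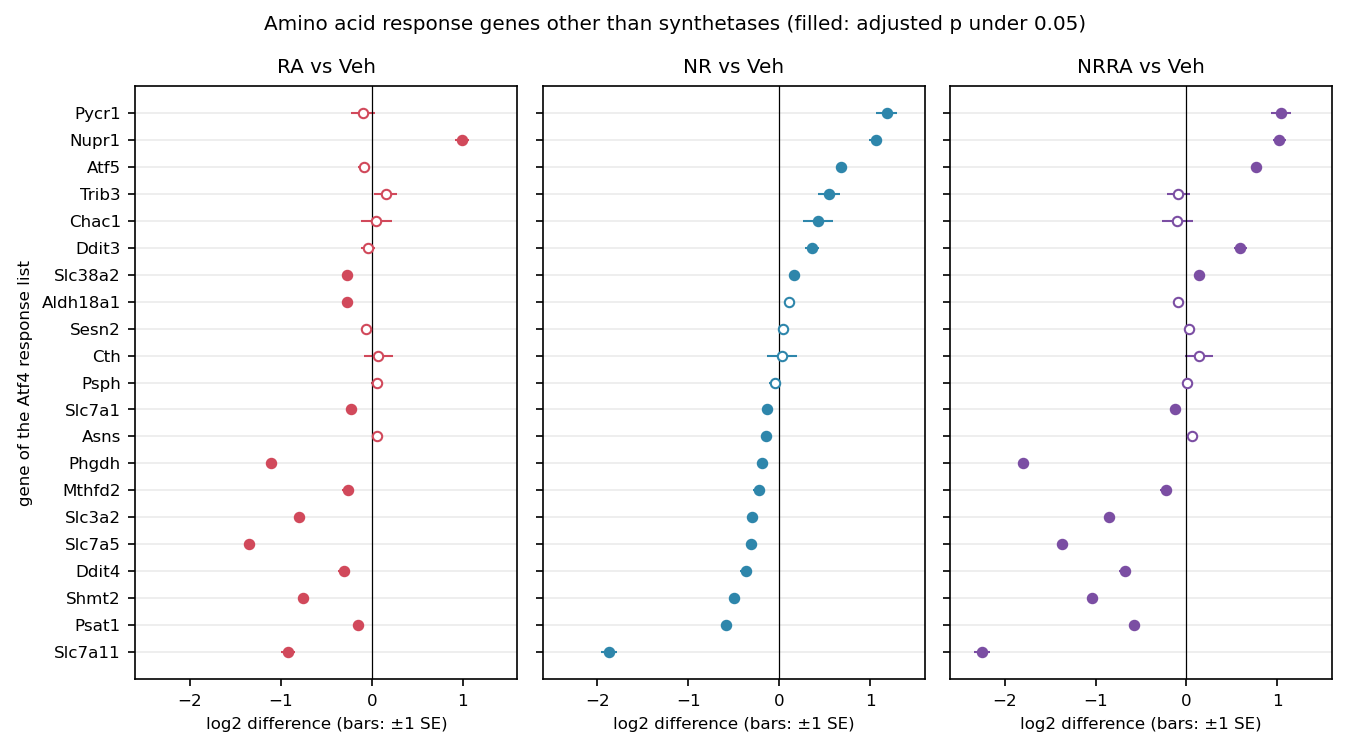
The log2 differences of 21 known Atf4 response genes that are not synthetases (rows, ordered by NR vs Veh) in RA vs Veh, NR vs Veh and NRRA vs Veh, with bars of 1 SE and filled points at an adjusted p under 0.05. In NR vs Veh 7 filled points lie right of 0, up to 1.18 (Pycr1), and 10 lie left, down to -1.87 (Slc7a11).

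Among 10 genes of amino acid sensing and eIF2 phosphorylation, 3 were called higher and 1 lower in NR vs Veh, 3 and 4 in RA vs Veh, and 3 and 4 in NRRA vs Veh. In NR vs Veh this is 30% higher and 10% lower, beside 21.7% and 22.2% of all genes. For RA and for NRRA vs Veh it is 30% higher and 40% lower. The shares of all genes there are 19.8% and 23.4% for RA, and 30.1% and 28.7% for NRRA. *Eif2ak4*, added after the data were seen, was 39 and 37.8 CPM for Veh, 52.7 and 53.3 for RA, 40.9 and 43.5 for NR, and 53.3 and 51.6 for NRRA. *Eif2ak2*, which encodes the interferon-induced eIF2 kinase PKR, was 82.1 and 95.8 CPM for Veh, 104.7 and 106.6 for RA, 151.1 and 138.1 for NR, and 138.8 and 146.2 for NRRA. Restricted groups lay above the others, at 0.70 ± 0.0602 in NR vs Veh (adjusted p = 3.13e-10). *Eif2s1*, the eIF2 subunit that these kinases phosphorylate, was 123.9 and 129.9 CPM for Veh, 115.5 and 120.1 for RA, 102.3 and 94.8 for NR, and 98.2 and 97.7 for NRRA, at -0.37 ± 0.051 in NR vs Veh (adjusted p = 1.5e-06).

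Cytosolic translation factors were lower in most cases, like the cytosolic synthetases. Of 14 factors, 10 were called lower and 0 higher in NR vs Veh, 9 lower and 3 higher in RA vs Veh, and 11 lower and 0 higher in NRRA vs Veh, with medians of -0.20, -0.21 and -0.32. In the same order, 22.2%, 23.4% and 28.7% of all genes were called lower, and 21.7%, 19.8% and 30.1% higher. *Eif4g1*, a scaffold of the cap-binding complex, was 1011 and 979.5 CPM for Veh, 870.5 and 846.4 for RA, 756.7 and 760.0 for NR, and 674.2 and 675.3 for NRRA. *Eef1d*, a subunit of the elongation factor that recharges eEF1A, was 249.0 and 249.0 for Veh, 185.3 and 180.7 for RA, 204.9 and 194.1 for NR, and 157.6 and 164.6 for NRRA. Neither gene had overlapping groups, and the log2 differences in NR vs Veh were -0.39 ± 0.0359 (adjusted p = 1.05e-09) for *Eif4g1* and -0.32 ± 0.0441 (adjusted p = 1.2e-06) for *Eef1d*.

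Of 9 mitochondrial translation factors, 4 were called lower and 0 higher in NR vs Veh, 4 lower and 1 higher in RA vs Veh, and 5 lower and 2 higher in NRRA vs Veh. The shares of all genes called lower were 22.2%, 23.4% and 28.7% in that order, and those called higher 21.7%, 19.8% and 30.1%. *Tufm*, the mitochondrial elongation factor that carries charged tRNA, was 152.4 and 138.8 CPM for Veh, 124.7 and 121.5 for RA, 110.0 and 110.9 for NR, and 108.3 and 109.6 for NRRA. Veh was highest, and both restricted groups lay below RA without overlapping each other, at -0.40 ± 0.05 in NR vs Veh (adjusted p = 2.68e-07). *Mrrf*, the ribosome recycling factor, was 32.3 and 34.7 CPM for Veh, 27.7 and 25.5 for RA, 29.1 and 28.1 for NR, and 26.1 and 26.2 for NRRA, at -0.23 ± 0.0709 in NR vs Veh (adjusted p = 0.00919).

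No synthetase gene passed a rule that also asks for a fold of at least 2. This rule took 7.49% of all genes in RA vs Veh, 8.29% in NR vs Veh, 15.9% in NRRA vs Veh, 8.29% in NRRA vs RA, 8.7% in NRRA vs NR and 2.24% in the interaction, and 0 of 36 members in each. With DESeq2 0 members reached that fold either. Over every fit made, member values ran from -0.82 (*Rars* in NRRA vs Veh) to 0.58 (*Wars2* in NR vs Veh). In NRRA vs Veh, 5 of 36 members passed a fold of 1.5 with an adjusted p under 0.05, beside 5857 of 20477 tested genes, a larger share. The 5 were *Kars*, *Rars*, *Farsb*, *Iars2* and *Tars2*, all of them lower.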

How the data were processed

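RNA-seq read counts per gene were taken as deposited. The authors sequenced poly(A)-selected stranded libraries. Per the submitters' processing notes, these were aligned to mm10 with STAR 2.6.1c and counted with featureCounts 1.6.4. The strand setting, annotation release and handling of multi-mapping reads are not given in the sources used here. Of 55421 genes, 20477 passed filterByExpr. All 8 libraries were fitted together with edgeR 4.0.16 in R 4.3.3 (TMM scaling, 1 coefficient per group, quasi-likelihood F test), and p-values were adjusted by Benjamini-Hochberg over all tested genes. The fit left 4 residual degrees of freedom. The 6 comparisons share groups. DESeq2 1.42.0, other scalings and filters, a GC and length trend (mgcv 1.9.3) and leave-one-out fits were alternatives, 16 in all. The fold rules of 1.5 and 2 were applied to the same fit.

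The members and gene lists were chosen with earlier results of these data known. Values by library were given for the 2 cytosolic members and the 1 mitochondrial member with the largest positive and the largest negative log2 value in each comparison, for the 2 widest amino acid pairs in each direction in NR vs Veh and NRRA vs Veh, for all scaffold genes and *Atf4*, and for the 2 members of each other related list with the largest change in NR vs Veh. Promoter windows came from RefSeq tables (GRCm38.p6), and gene positions and lengths from GENCODE M21 (GRCm38). Replicate libraries differed by more than sampling noise (chi-square per gene between 1.58 and 3.93). A related gene and a sequence are not reported here.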

Additional observations from a re-analysis of the deposited data

Results flagged for a closer look

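Of the synthetase genes and the genes of the related lists, 14 differed between media in their response to retinoic acid by edgeR's interaction term over all tested genes. These are 36 synthetase, 3 scaffold, 4 other mitochondrial aminoacylation, 10 sensing and 21 *Atf4* response genes, with 14 cytosolic and 9 mitochondrial translation factors. Of all tested genes, 6.37% were called with a higher and 6.58% with a lower response, so the 14 lie near the share of all genes. A positive value is a higher log2 response in restricted than in complete medium. Among the synthetase genes *Lars2* stood at 0.27. This call was lost in 10 of the alternatives that fitted the interaction, both with other scalings and without single libraries of each group. Of the 16 alternatives, the fit of the compared groups only held no interaction. Of the *Atf4* response genes, the amino acid transporter genes *Slc7a11* (0.55), *Slc7a5* (0.28), *Slc3a2* (0.26), *Slc38a2* (0.24) and *Slc7a1* (0.23) were higher, and *Nupr1* (-1.03), *Trib3* (-0.79) and *Phgdh* (-0.50) lower. Of the translation factors, *Tufm* stood at 0.22, *Eef1b2* at 0.20, *Eef1a1* at 0.14 and *Etf1* at -0.24. Of the genes of sensing and eIF2 phosphorylation, *Eif2ak2* stood at -0.27.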

How the results depend on the processing

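Each group has 2 libraries, so p-values rest on a spread pooled over groups. Cytosolic medians stayed negative in all 5 pairwise comparisons under every alternative. With library totals they were -0.121 (RA vs Veh), -0.203 (NR vs Veh), -0.283 (NRRA vs Veh), -0.065 (NRRA vs NR) and 0.064 (interaction), and mitochondrial medians were 0.002, 0.029, 0.090 and 0.014 in the same 4 pairwise comparisons, all of which changed sign, while mitochondrial calls were 4 in RA vs Veh and 0 in the interaction. This scaling put the median of all genes at 0.08 in RA vs Veh and 0.14 in NRRA vs Veh, with 64.6% and 63.1% of calls higher, against 45.8% and 51.2% with TMM. In NRRA vs NR that share was 63.8% against 49%.

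With CPM of at least 1 in all libraries, cytosolic medians were -0.176 (RA vs Veh), -0.197 (NR vs Veh), -0.363 (NRRA vs Veh) and 0.032 (interaction), and mitochondrial medians -0.053, 0.035, 0.009 and -0.028, of which the last 3 changed sign. Of all interaction calls 37% were then higher, against 49.2%. With the compared groups only, medians in RA vs Veh were -0.190 (cytosolic) and -0.067 (mitochondrial). With the GC and length trend removed, cytosolic medians were -0.292 (NR vs Veh) and -0.207 (NRRA vs RA), mitochondrial medians were -0.091 when NR and -0.136 when NRRA was set against Veh, and -0.002 (NRRA vs RA), and the interaction called 3 cytosolic and 2 mitochondrial members. The share of calls higher was 38.1% in NR vs Veh, against 49.4%, and 59.5% in the interaction. Named genes that changed sign there were *Dars* (-0.13 in RA vs Veh, -0.02 in NRRA vs NR, 0.12 in the interaction), *Mars2* (-0.08 in RA vs Veh, -0.34 in NRRA vs Veh) and *Eprs* (-0.07 in NRRA vs RA). DESeq2 and RLE scaling each gave a cytosolic median of -0.419 in NRRA vs Veh and 0 mitochondrial interaction calls, and DESeq2 gave -0.190 in NRRA vs RA. With no filter, the interaction called 1 cytosolic member and *Qars* stood at 0.00. A fold of at least 1.5 left 3 cytosolic and 2 mitochondrial calls in NRRA vs Veh, beside 5857 of 20477 tested genes, and 0 member calls elsewhere. A fold of at least 2 left 0. The cause of these changes was not tested.

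Without 1 library, cytosolic calls ran from 15 to 18 in NR vs Veh, 16 to 17 in RA vs Veh, 17 to 19 in NRRA vs Veh, 9 to 17 (9 without NRRA replicate 2) in NRRA vs RA, 10 to 13 (NRRA vs NR) and 0 to 1 (interaction). Mitochondrial calls ran from 3 to 7, 5 to 7, 7 to 10, 3 to 5, 6 to 6 and 0 to 1 in that order. Cytosolic medians ran from -0.251 to -0.213, -0.225 to -0.184, -0.403 to -0.372, -0.19 to -0.164, -0.162 to -0.13 and 0.026 to 0.096. Mitochondrial medians ran from -0.007 to 0.025, -0.154 to -0.077, -0.086 to 0.029, 0.016 to 0.06, -0.109 to -0.023 and -0.059 to 0.028. *Dars* in the interaction ran from -0.15 to 0.03 (above 0 without Veh replicate 1 or RA replicate 2), and *Qars* from -0.07 to 0.02 (above 0 without RA replicate 2).

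Same-numbered libraries did not deviate together (correlations of -0.0334 to 0.0225), so the numbers pair nothing. The replicate block gave 16, 18 and 17 cytosolic calls in RA, NR and NRRA vs Veh, and of the members only *Hars* in RA vs Veh lost its call (adjusted p = 0.0545).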
